A study of Homo sapiens with 4 samples.

Results

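The proteasome genes examined here are the 50 protein-coding genes of the RefSeq annotation whose symbols begin with PSMA, PSMB, PSMC, PSMD, PSME, PSMF or PSMG, out of 20033 protein-coding genes with a chromosomal position. Each gene was included by its name alone, but the set itself was chosen with earlier results of these data known. Acetylation of histone H3 at lysine 14 (H3K14ac) was mapped by ChIP-seq in MKN45, an established human gastric cancer cell line, with 1 library from cells carrying the hairpin named shNT (called control below) and 1 from cells carrying shNIT2, a hairpin named for NIT2, which encodes an omega-amidase (called knockdown). Both groups were grown in DMEM with fetal bovine serum and antibiotics. The labels give no clone, infection time or drug treatment, and a ChIP library does not show how far NIT2 was reduced. The 2 matching input libraries were not used here.

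The proteasome is the protease that degrades proteins tagged with ubiquitin. Its core is a barrel whose outer rings are built from PSMA (alpha) subunits and whose inner rings are built from PSMB (beta) subunits, some of which cut peptide bonds. The cap on the end of the barrel consists of PSMC ATPases, which unfold the substrate, and PSMD subunits, some of which bind or remove ubiquitin. Interferon induces alternative catalytic subunits (PSMB8, PSMB9 and PSMB10) and the activator formed by PSME1 and PSME2, which favour peptides for antigen presentation. Chaperones of the PSMG family assemble the core, and PSMD5, PSMD9 and PSMD10 assist assembly of the cap. H3K14ac is found mainly at active promoters and enhancers.

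By role the 50 genes comprised 14 core genes, 17 cap genes, 5 immune genes, 7 assembly genes and 7 others. The others were PSMA8 (testis alpha subunit), PSMB11 (thymus beta subunit), PSME3 and PSME4 (nuclear activators), PSMF1 (an inhibitor), PSMC3IP and PSME3IP1. PSMC3IP and PSME3IP1 were included by symbol, not as subunits or chaperones. PSMC3IP acts in meiotic recombination, and PSME3IP1 encodes a partner of PSME3.

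The 2 peak lists differed in the fragments behind their regions. The knockdown list held 28187 regions with a median of 22 fragments at the summit, and the control list held 39876 regions with a median of 6. The lowest local background was 2.48 fragments in the knockdown and 0.278 in the control. By the 1 kb rule given next, the knockdown list marked 10 of 10 epithelial marker genes, led by CEACAM6 (24.8-fold), KRT8 (24.6-fold) and EPCAM (18.0-fold), and the control list marked 6 (these 3, CDH1, KRT18 and KRT19). The knockdown list marked 2 of 5 blood cell genes (CD3E and PTPRC) and 2 of 5 fibroblast and muscle genes (PDGFRB and MYH11). These reached 4.34-fold or less. The control list marked PTPRC and MYH11. Over all protein-coding genes the knockdown list marked 47% and the control list 28.5%. The blood, fibroblast and muscle genes, few in number, thus lay near those shares. With 1 library per condition there is no test of any difference below, and the hairpin, the difference in fragments and background, and any other property of the library cannot be told apart.

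A gene was counted as marked when at least 1 bp of a region lay within 1 kb of its span. The knockdown list marked 36 of the 50 proteasome genes (72%), against 47% of all protein-coding genes. The control list marked 9 (18%), against 28.5% of all genes. The knockdown list alone marked 28 proteasome genes (27.4% of all genes), both lists marked 8 (19.6%), the control list alone marked 1 (8.91%) and neither marked 13. Relative to all genes, their share was thus higher among knockdown regions and lower among control regions.

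Long genes meet a region more often, and the proteasome genes were short. Their median span was 13.6 kb, from 1.85 kb in PSMB11 to 139 kb in PSMA1, against 24.1 kb over all genes. Among genes up to the all-gene median, the knockdown list marked 24 of 33 proteasome genes and 36% of all genes. Among longer genes it marked 12 of 17, against 58%. The control list marked 4 of the 33 shorter proteasome genes (11.1% of all shorter genes) and 5 of the 17 longer ones (45.9%). In the control list, the shorter proteasome genes were therefore marked at close to the level of other short genes. The longer ones were marked below the level of other long genes. That split does not match length among the longer genes, since spans reached 2474 kb over all genes and 139 kb among the proteasome genes. How far length accounts for the lower share was not tested.

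**Figure D1:**
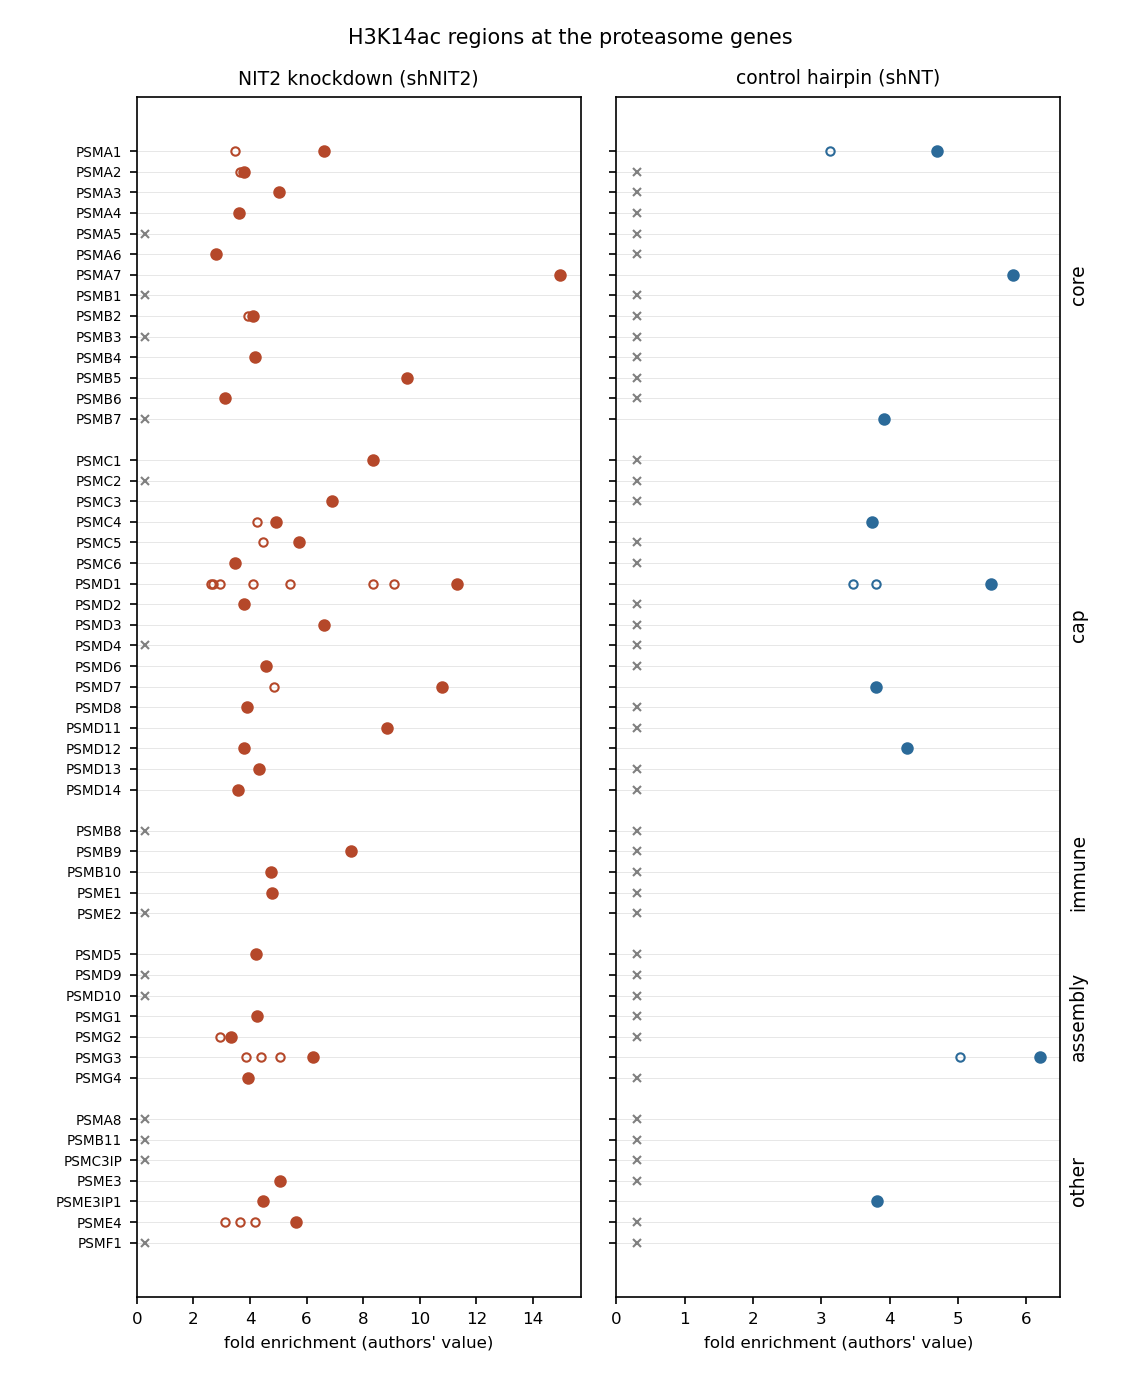
Authors' fold enrichment of every H3K14ac region within 1 kb of each of the 50 proteasome genes, by role, for the knockdown (left) and the control (right). Filled circles are the strongest region of a gene, open circles its other regions and crosses genes without a region. The axes differ because folds are not comparable between lists with unequal background. PSMA7, PSMD1 and PSMD7 carry the highest knockdown folds (15.0, 11.3 and 10.8), and each also has a control region.

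Cap genes were marked most often in the knockdown list, with 15 of 17. Of the 6 ATPase genes it marked 5, and of the 11 other cap genes 10. Core genes followed with 10 of 14, made up of 6 of 7 alpha genes and 4 of 7 beta genes. The assembly genes had 5 of 7, the immune genes 3 of 5 and the others 3 of 7. In the control list these counts were 4 cap, 3 core, 1 assembly, 0 immune and 1 other. Over all genes, the knockdown list marked 47% and the control list 28.5%. The groups hold few genes, and the differences between them were not tested.

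Because a region anywhere in a long gene counts, the gene start was examined next. The RefSeq promoter sequences used here give a start for 44 of the 50 genes and for 15842 genes in all. They give 1 start per gene, and in PSMA1, PSMA6, PSMG4, PSMD6 and PSMC2 this start lies more than 100 bp inside the span. Within 1 kb of the start the knockdown list had a region at 32 of 44 proteasome genes (72.7%), against 37.4% of all genes. The control list had one at 3 of 44 (6.82%), close to the 5.51% of all genes. These were PSMC4, PSMD1 and PSMD7, and all 3 starts were marked in both lists, as were 4.67% of all starts. The knockdown list alone marked 29 starts (32.7% of all genes), and the control list alone marked 0 (0.84%). By role, knockdown regions stood at 15 of 16 cap starts, 8 of 10 core starts, 3 of 5 immune starts and 3 of 6 assembly starts.

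**Figure D2:**
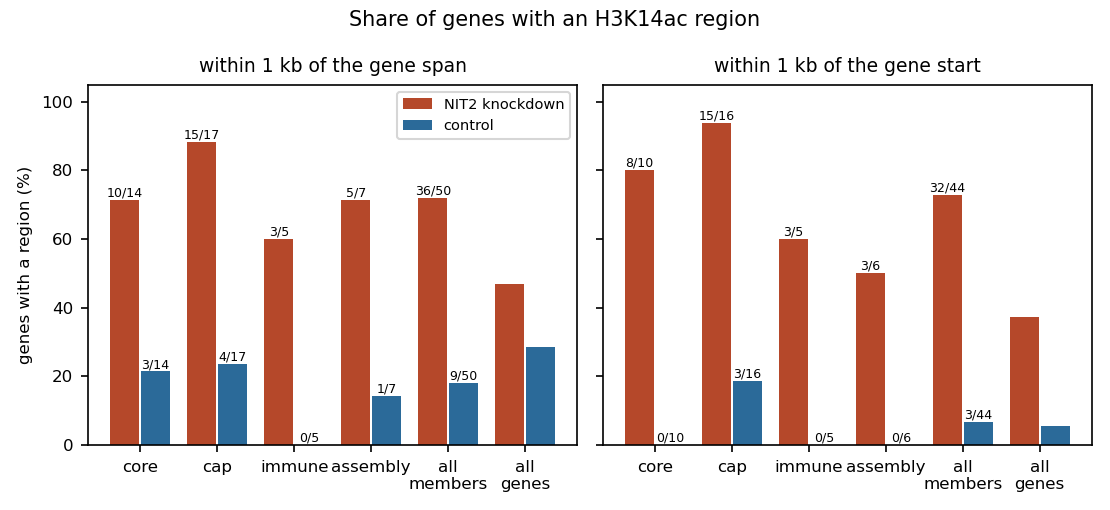
Percentage of genes with an H3K14ac region within 1 kb of the span (left) or of the gene start (right), for each role group, all members and all protein-coding genes, for knockdown and control. Fractions above the bars are numbers of genes. Knockdown bars of cap genes are the tallest in both panels (15 of 17 and 15 of 16), and control bars are low throughout.

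The start regions of the proteasome genes lay just downstream of the start. In 29 of the 32 genes (90.6%) a knockdown region lay wholly downstream, against 73.04% of the 5920 genes with a knockdown region at the start. The gap between the start and that region had a median of 105 bp (139 bp over all genes). The strongest region had its summit at a median of 343 bp past the start, with quartiles of 217 and 458 bp. Over all genes the median was 309 bp and the quartiles were -54 and 472 bp. The start itself lay inside a region in 1 gene, PSMB4 (3.13%), against 15.8% over all genes. Regions on both sides of the start were found at 4 genes, PSMA2, PSMC4, PSMC5 and PSMD7 (12.5%, against 20.1%). The upstream region was the strongest at PSMC4, PSMB9 and PSMC6. Whether these offsets differ from those of other genes was not tested.

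**Figure D3:**
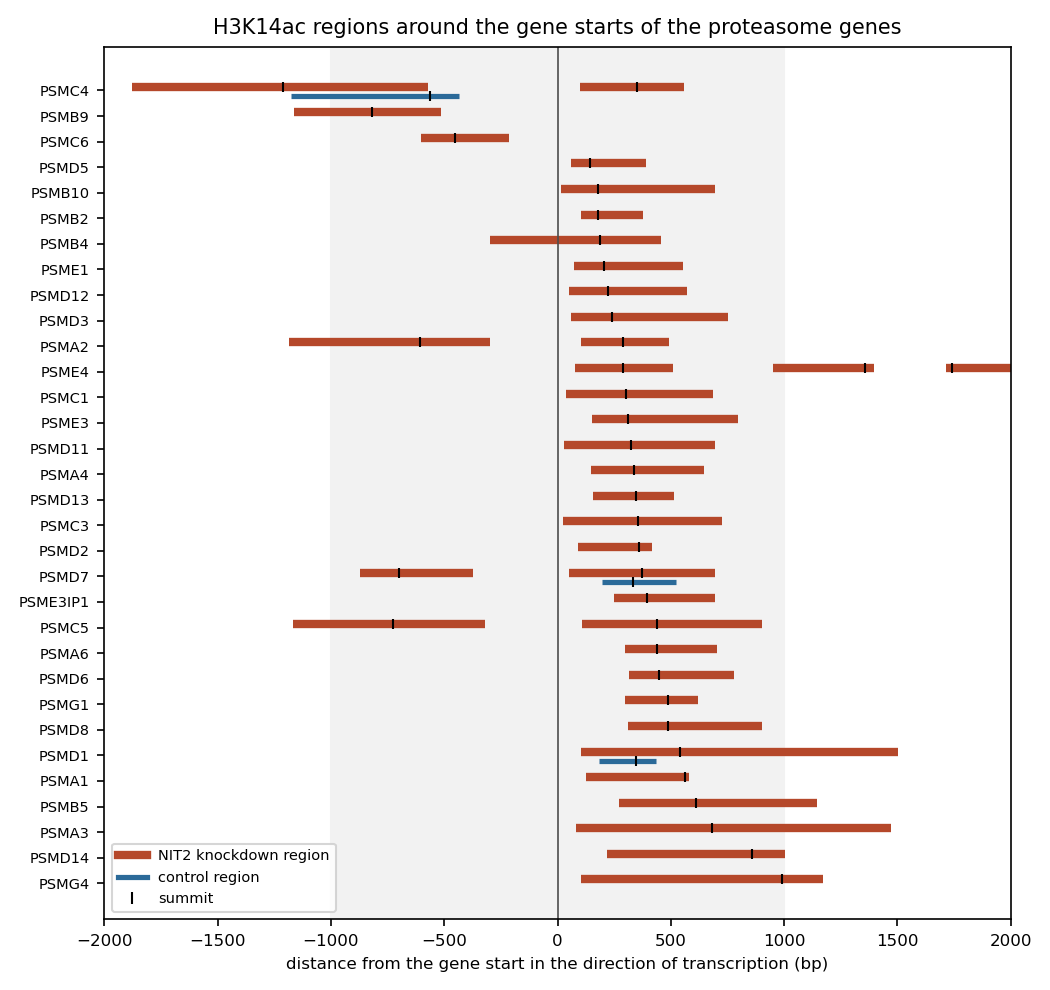
H3K14ac regions around the gene start (distance in bp) at the 32 proteasome genes with a start region, drawn in the direction of transcription and ordered by the summit of the strongest knockdown start region. Thick bars are knockdown regions, thin bars control regions, ticks summits, and the shaded band is 1 kb to each side. Most bars begin shortly after the start, and only that of PSMB4 crosses it. Control bars appear at PSMC4, PSMD7 and PSMD1.

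The strongest knockdown region per marked gene had a median of 4.67-fold on 28.5 fragments (range 2.80 to 15.0-fold), against 5.17-fold on 25 fragments over all 9414 marked genes. Widths had a median of 648 bp, close to 656 bp over all marked genes. In the control list the 9 marked genes had 4.25-fold on 5 fragments, against 4.63-fold on 5 fragments over 5709 genes. On the lowest control background, 3 fragments give 3.13-fold, 4 give 3.91-fold and 5 give 4.70-fold, so control folds move in steps of 1 fragment. Only regions that passed the peak threshold enter these medians. Counting only regions of at least 5-fold left 15 of the 50 genes in the knockdown list, against 24.9% of all genes, and 3 in the control list, against 10.4%.

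Among the alpha genes, PSMA7 had the strongest region of all 50 genes. In the knockdown it spanned 2022 bp (chr20:62142336-62144357) at 15.0-fold on 58 fragments, and 1.74% of the knockdown list ranked higher by fold. The control list held a region inside it (chr20:62142590-62143147) at 5.80-fold on 8 fragments. Both regions also lay within 1 kb of the start of SS18L1, so it cannot be assigned to PSMA7 alone. PSMA1 had a knockdown region of 6.61-fold that lay 63517 bp upstream of the RefSeq start but inside the span, and a weaker one of 3.48-fold at the start. Its 2 control regions, at 4.70-fold and 3.13-fold, lay elsewhere in the gene. PSMA3 (5.01-fold), PSMA2 (3.79-fold), PSMA4 (3.61-fold) and PSMA6 (2.80-fold, the lowest strongest region among the marked genes) had no control region. Both PSMA2 regions also lay within 1 kb of the start of MRPL32, a mitochondrial ribosomal protein gene.

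Of the catalytic beta genes, PSMB5, the chymotrypsin-like subunit, had the strongest region. It lay at chr14:23034075-23034949, within the gene, with its summit 612 bp past the start, at 9.54-fold on 54 fragments. The nearest control region lay 23.7 kb from the gene. PSMB6, the caspase-like subunit, had 3.12-fold on 34 fragments in the knockdown and none in the control. PSMB7, the trypsin-like subunit, was the only one of the 50 genes marked in the control list alone. Its control region (chr9:124407899-124408205) held 4 fragments at 3.91-fold, lay inside the gene, and the nearest knockdown region was 93.2 kb from the gene. The structural beta genes PSMB4 (4.19-fold) and PSMB2 (4.12-fold) were marked in the knockdown alone, and PSMB1 and PSMB3 in neither list.

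The non-ATPase cap genes held the next highest values. PSMD1, a scaffold of the cap base, had 8 knockdown regions across its 116 kb. The strongest, at the start (chr2:231056972-231058372), reached 11.3-fold on 46 fragments. A control region of 4 fragments (3.80-fold) overlapped it. A group of 5 knockdown regions lay between 37584 and 46510 bp past the start, with 9.11-fold on 72 fragments and 8.33-fold on 33 fragments as the strongest. The latter overlapped a control region of 3.47-fold on 4 fragments. The highest control value in the gene, 5.48-fold on 6 fragments, lay 83842 bp past the start and overlapped no knockdown region.

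PSMD7, a lid subunit, had 10.8-fold on 51 fragments at chr16:74296866-74297507, and a second region of 4.85-fold upstream of the start. The control region at PSMD7 held 4 fragments (3.81-fold). Its summit lay 332 bp past the start, near the knockdown summit at 374 bp. PSMD11, a lid scaffold, had 8.84-fold on 62 fragments, the most fragments in a strongest region, and no control region. PSMD3, also of the lid, had 6.61-fold. The lowest of the marked non-ATPase genes was PSMD14, the deubiquitinase of the lid, at 3.57-fold with its summit 860 bp past the start. PSMD12 (3.78-fold at the start) was marked in both lists, but its control region (4.25-fold on 5 fragments) lay 14275 bp past the start. The region at PSMD13 (4.31-fold) also lay within 1 kb of the start of SIRT3, a mitochondrial deacetylase. PSMD4, a ubiquitin receptor of the cap, was marked in neither list.

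Of the ATPase genes, PSMC1 led with 8.35-fold on 50 fragments, with its summit 302 bp past the start. PSMC3 followed with 6.89-fold on 27 fragments. PSMC5 had 5.73-fold past the start and 4.47-fold before it, and both regions lay within 1 kb of the start of FTSJ3, a ribosomal RNA processing gene. PSMC4 was marked in both lists. Its strongest knockdown region (4.92-fold, chr19:39969288-39970592) overlapped a control region of 3.74-fold on 4 fragments. Both lay upstream of the start, and a second knockdown region of 4.26-fold lay 351 bp past it. PSMC6 was lowest at 3.48-fold, in a region that ended 212 bp before the span. PSMC2 was marked in neither list. The nearest knockdown region ended 2759 bp from the gene, near PMPCB and DNAJC2.

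None of the 5 immune genes had a control region. Their median span was 3.25 kb, and the control list marked 11.1% of all genes up to the median span. PSMB9 had the highest value, 7.56-fold on 40 fragments at chr6:32853027-32853676. That region lay before the start of PSMB9 and within 1 kb of the start of TAP1, the peptide transporter gene, so it cannot be assigned to PSMB9 alone. PSME1 had 4.78-fold on 29 fragments and PSMB10 had 4.76-fold on 25 fragments, with summits 206 and 179 bp past their starts. PSMB8 had no region, and the nearest was the PSMB9 region, 8348 bp away. PSME2 missed the 1 kb limit narrowly. The nearest knockdown region began 1025 bp from its span (chr14:24147635-24148364, 4.35-fold), near RNF31. That region lay on the side of the PSME2 start. PSMA5 had a region of 4.31-fold 1289 bp from its span, near SORT1, but beyond the end opposite its start. In the knockdown list, the marked genes whose regions all lay outside the span were PSMC6, at 212 bp, and PSMB9, at 516 bp. In the control list the PSMC4 region lay 433 bp outside the span.

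Among the assembly genes, PSMG3 had 4 knockdown regions over a span of 2.70 kb and its flanks, the strongest at 6.24-fold on 35 fragments (chr7:1570229-1570939). A control region of 6.20-fold on 8 fragments, the highest control fold in the 50 genes, overlapped it, and another of 5.03-fold lay within the gene. PSMG1 (4.25-fold), PSMD5 (4.22-fold) and PSMG4 (3.94-fold) had knockdown regions past their starts and no control region. The 2 regions of PSMG2 (3.34-fold and 2.95-fold) had summits 44501 and 43161 bp past its start and lay within 1 kb of the start of CEP76, a centrosome gene, so no region stood at the start of PSMG2 itself. PSMD9 and PSMD10 were marked in neither list.

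Of the remaining genes, the nuclear activators PSME4 (5.64-fold, with 3 further regions past the start) and PSME3 (5.05-fold) were marked in the knockdown alone. The strongest PSME4 region also lay within 1 kb of the start of ACYP2. PSME3IP1 had 4.47-fold at the start, and 1 control region of 3.81-fold 24027 bp past it. The testis gene PSMA8, the thymus gene PSMB11, the inhibitor gene PSMF1 and the meiotic gene PSMC3IP were marked in neither list. The region nearest to PSMF1 was 153 kb away in the knockdown and 41.03 kb away in the control.

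Where both lists marked a gene, the regions coincided in 5 of 8 cases. These were PSMA7, PSMD1, PSMD7, PSMC4 and PSMG3, whereas PSMA1, PSMD12 and PSME3IP1 had control regions away from the knockdown ones. Of the 13 control regions at the 50 genes, 6 (46.2%) overlapped a knockdown region, and of the 56 knockdown regions 6 (10.7%) overlapped a control region. For regions within 1 kb of any protein-coding gene these shares were 22.2% and 10.8%. The 13 control regions held 3 to 8 fragments each, and the 56 knockdown regions 14 to 72.

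The 300 bases around each start, 250 before and 50 from it on, were searched on both strands for 9 short motifs. All 44 promoters came from RefSeq (GRCh38.p14). The CCGGAAG core bound by ETS factors occurred in 9 of 16 cap promoters, 0 of 10 core, 2 of 6 assembly, 0 of 5 immune and 3 of 7 other promoters. In all it was in 14 of the 44 (31.8%), against 14.2% of all 15842 promoters and 19.8% of CpG-rich ones. The antioxidant response element TGACNNNGC is the sequence through which NFE2L1 activates proteasome genes when the protease is inhibited. It occurred in 4 of 6 assembly, 3 of 5 immune, 4 of 16 cap, 1 of 10 core and 1 of 7 other promoters. Together these made 13 of the 44 (29.5%), against 14.3% of all promoters and 15.2% of CpG-rich ones. The interferon response core GAAANNGAA occurred in 3 of 5 immune promoters (PSMB10, PSME1 and PSME2), 2 of 10 core (PSMA4 and PSMB4), 1 of 16 cap (PSMC2) and 1 of 6 assembly promoters (PSMG4), and in 7.06% of all. The NF-Y box CCAAT occurred in 21 of the 44 (47.7%, against 36.4%) and the GC box GGGCGG in 30 (68.2%, against 58.5% of all and 77.4% of CpG-rich promoters, defined below). TATAAA occurred in 5 promoters, of which 4 were of cap genes (9.63% of all). AAGATGGCG, bound by YY1, occurred in PSMA2 and PSMD11 (2.74% of all). GCGCATGCG, bound by nuclear respiratory factor, occurred in PSMA4 (2.76% of all), and the cyclic AMP element TGACGTCA in none (2.59% of all). Matches of different motifs overlapped in 3 of the promoters, each time by 1 or 2 bases of a GC box and an ETS core.

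Of the 44 starts, 32 had a knockdown region and 12 had none. The ETS core was in 10 of the 32 and 4 of the 12, the antioxidant element in 9 and 4, the NF-Y box in 15 and 6, the interferon core in 5 and 2, and TATAAA in 3 and 2. These shares were not tested. CpG content was examined the same way. Of the 44 promoters, 37 (84.1%) had a ratio of observed to expected CpG of at least 0.6 and were called CpG-rich. Over all promoters this share was 65.8%, and the share of all starts given above was not matched for CpG content. Of the 37, 30 had a knockdown region (50.2% of all promoters in that range). Of the 7 below 0.6, namely PSMB8, PSMB10, PSMB11, PSMC2, PSMD8, PSME2 and PSMF1, 2 had a region (12.8% of all in that range). The 2 were PSMB10 and PSMD8. A match is a string of letters, not a bound site.

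**Figure D4:**
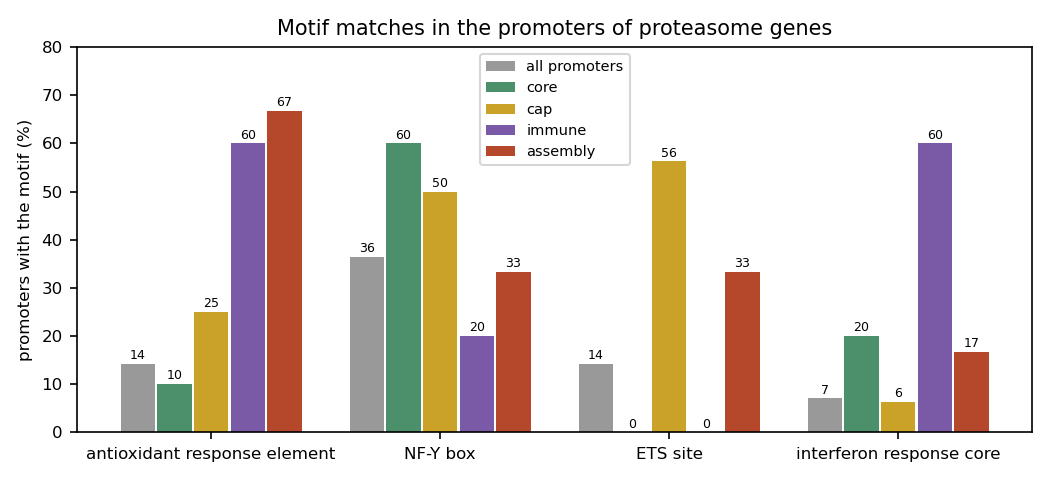
Percentage of promoters (300 bases around the start) that hold each of 4 motifs, for all promoters with a RefSeq sequence and for core (10), cap (16), immune (5) and assembly (6) genes. ETS matches are in 56.3% of cap promoters and 0% of core ones, and interferon core matches reach 60% in immune promoters. Each group holds few promoters.

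The following promoters show these motifs in genes with and without a knockdown region. Each runs 5′ to 3′ on the strand of the gene from 250 bases before the start to 30 bases from it on, and capitals mark the ETS, NF-Y, antioxidant and interferon motifs named above. PSMD7 (chr16:74296564-74296843, plus strand) was marked in both lists and has an ETS core across its start. PSMC2 (chr7:103347393-103347672, plus strand) is an unmarked cap gene with 2 ETS cores, an NF-Y box and an interferon core. PSMB5 (chr14:23035191-23035470, minus strand) has the strongest start region of the 10 core genes with a start used here, and an NF-Y box.
PSMD7: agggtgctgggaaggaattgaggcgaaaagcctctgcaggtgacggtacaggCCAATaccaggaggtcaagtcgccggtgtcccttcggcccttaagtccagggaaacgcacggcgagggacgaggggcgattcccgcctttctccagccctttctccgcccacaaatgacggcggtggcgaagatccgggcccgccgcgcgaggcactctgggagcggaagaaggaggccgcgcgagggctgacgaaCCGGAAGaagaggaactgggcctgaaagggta
PSMC2: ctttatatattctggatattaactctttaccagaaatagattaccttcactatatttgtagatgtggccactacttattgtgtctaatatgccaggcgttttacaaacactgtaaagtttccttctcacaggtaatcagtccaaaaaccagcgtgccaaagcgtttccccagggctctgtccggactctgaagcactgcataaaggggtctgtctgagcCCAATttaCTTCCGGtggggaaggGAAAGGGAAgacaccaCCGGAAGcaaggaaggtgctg
PSMB5: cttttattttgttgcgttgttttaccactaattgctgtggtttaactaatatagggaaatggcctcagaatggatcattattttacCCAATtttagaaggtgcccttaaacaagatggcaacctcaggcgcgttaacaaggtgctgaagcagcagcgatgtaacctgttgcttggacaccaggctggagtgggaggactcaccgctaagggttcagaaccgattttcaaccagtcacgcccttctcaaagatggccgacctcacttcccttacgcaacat

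The next promoters are of 1 assembly gene and 3 immune genes that hold an antioxidant element, an interferon core or both. PSMG1 (chr21:39183422-39183701, minus strand) holds an NF-Y box and an antioxidant element. PSMB10 (chr16:67936821-67937100, minus strand) and PSME1 (chr14:24135944-24136223, plus strand) had a knockdown region past the start, and PSME2 (chr14:24146581-24146860, minus strand) had none within 1 kb. PSMB10 and PSME2 share the interferon core with 1 spelling, at 21 and 28 bases before their starts. PSME1 has it on the other strand, 6 bases past the start. The spelling is not limited to immune genes, as the assembly gene PSMG4 holds it 33 bases before its start.
PSMG1: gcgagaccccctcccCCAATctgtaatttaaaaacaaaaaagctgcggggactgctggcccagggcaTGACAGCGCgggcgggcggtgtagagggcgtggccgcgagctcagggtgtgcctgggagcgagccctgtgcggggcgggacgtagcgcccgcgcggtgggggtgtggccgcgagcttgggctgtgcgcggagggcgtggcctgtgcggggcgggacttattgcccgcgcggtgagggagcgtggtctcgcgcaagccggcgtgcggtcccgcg
PSMB10: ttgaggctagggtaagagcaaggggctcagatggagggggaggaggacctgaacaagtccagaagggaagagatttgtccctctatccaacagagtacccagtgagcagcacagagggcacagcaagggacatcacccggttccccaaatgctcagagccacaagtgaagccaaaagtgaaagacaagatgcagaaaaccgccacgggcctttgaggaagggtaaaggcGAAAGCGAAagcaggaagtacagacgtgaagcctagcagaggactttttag
PSME1: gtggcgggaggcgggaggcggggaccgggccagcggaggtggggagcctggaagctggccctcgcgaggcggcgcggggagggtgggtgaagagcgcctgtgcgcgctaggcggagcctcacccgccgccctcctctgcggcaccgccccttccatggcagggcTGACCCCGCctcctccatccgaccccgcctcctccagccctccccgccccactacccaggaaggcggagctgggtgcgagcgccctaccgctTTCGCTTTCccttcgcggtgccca
PSME2: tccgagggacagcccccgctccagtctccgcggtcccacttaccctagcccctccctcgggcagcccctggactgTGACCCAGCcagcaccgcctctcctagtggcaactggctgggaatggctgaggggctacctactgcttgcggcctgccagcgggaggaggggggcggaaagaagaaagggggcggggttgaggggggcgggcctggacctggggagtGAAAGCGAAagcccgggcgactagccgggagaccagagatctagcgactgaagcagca

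Most genes that work with the proteasome carried a knockdown region too. Of 11 proteasome partners 11 were marked, led by the ubiquitin receptor ADRM1 (10.6-fold), the proteasome activator ZFAND5 (9.24-fold) and the ligase UBE3C (8.21-fold). The control list marked 6 of them, ZFAND5 (6.49-fold), UBE3C (4.66-fold), ECPAS and AKIRIN2 (both 3.91-fold), PAAF1 (3.84-fold) and USP14 (3.79-fold), of which ZFAND5 and UBE3C were marked at the start. The shuttle gene RAD23B, whose product carries tagged proteins to the proteasome, had 13.2-fold in the knockdown and 5.26-fold in the control, both at the start. UBA1, the ubiquitin-activating enzyme, had 8.36-fold in the knockdown, 3257 bp past the start, and no control region. All 7 genes of the NFE2L1 pathway were marked, with the small MAF partners MAFG (33.3-fold) and MAFK (11.5-fold) first and NFE2L1 itself at 7.30-fold. The control list marked MAFG alone of these (6.57-fold on 8 fragments). Of 11 genes of MHC class I antigen processing 10 were marked, led by CALR (9.71-fold), ERAP1 (9.55-fold) and IRF1 (8.40-fold), and TAP2 was not. The control list marked NLRC5 (6.26-fold) and ERAP1 (3.11-fold). By the same rule the shares over all genes were 47% (knockdown) and 28.5% (control). Whether these lists differ from the proteasome genes was not tested.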

How the data were processed

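H3K14ac ChIP-seq of MKN45 cells gave 1 peak list per hairpin. The submitters' processing notes name MACS2 2.1.1, Bowtie2 2.2.6, ChIPseeker, FastQC, Trimmomatic 0.35 and cutadapt 1.9.1, and build hg38. Use of the inputs as control, duplicates and multiply mapped reads are not given in the sources used here. For every region the deposited files give a score, a fold enrichment (a ratio), a −log10 p-value and a −log10 q-value, all the authors' own. They were used to describe and rank regions within a list.

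The members and lists were chosen with earlier results of these data known. Genes and promoters came from RefSeq (GRCh38.p14), without exons. Python 3.11.15 with pandas 2.3.3 and scipy 1.17.1 was used. Fragments at a summit and the local background were solved from fold, taken as pileup plus 1 over background plus 1, and the Poisson tail. A whole number matched within 0.1% of the −log10 p for 99.96% of regions in each list. Sequencing depth in reads is unknown. In 1421 regions simulated with these same formulas the solution recovered 100%. This checks the solving step only, and cannot show that the authors' values follow the formulas. No test was run, since each condition had 1 library. Named were all genes marked in the control list or in neither list, the highest and lowest fold per role, the 10 highest knockdown folds and, of related lists, the 3 highest and all control-marked genes. A further list, on ubiquitin delivery, is reported here in part only. Others named were chosen after their values were seen. For 6 genes (PSMA7, PSMB1, PSMB6, PSMB7, PSMD4 and PSMG3) no start was used.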

Additional observations from a re-analysis of the deposited data

How the results depend on the processing

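Of the main counts, 31 values under 10 alternatives stayed within 1.5 times and 19 fell further, none rose further. For the role groups, 64 stayed and 16 fell. With −log10 q at 5 or more, 2 of the 50 genes were marked in the control list (5.93% of all genes), 2 in both lists (4.52%), 0 in the control alone (1.41%) and 31 in the knockdown list (36.0%). With −log10 q at 10 or more, the knockdown list marked 16 genes (22.7% of all genes), 16 in the knockdown alone (21.8%). The control list then marked 0 (1.03%), with 0 in both (0.918%) and 0 in the control alone (0.11%). At a fold of at least 5, the knockdown list marked 15 (24.9% of all genes) and 12 alone (18.9%). The control list marked 3 (10.4%), with 3 in both (5.98%) and 0 in the control alone (4.46%). These thresholds are not equally strict at unequal background. With windows of 1 kb around the start (either gene end for the 6 genes without one), and again with equal numbers of regions, the control list marked 5, with 5 in both and 0 in the control alone. The control share over all genes was 5.64% with start windows and 18.7% with equal numbers. The members thus lay above all genes in the first setting and below in the second. Over all genes, both lists marked 4.67% with start windows and 13.8% with equal numbers. The control alone marked 0.968% and 4.89% of all genes. Spans without extension or with 3 kb, the summit rule, the 50% rule and leaving out gene-free stretches moved no main count past 1.5 times. Leaving out a replicate was not possible with 1 library per condition.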

Other observations

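The annotation also holds 53 pseudogenes and 8 long noncoding RNA genes whose symbols begin with the same letters. Processed pseudogenes are copies of the spliced RNA inserted elsewhere in the genome. Shares over all pseudogenes and over all long noncoding RNA genes were not computed. The counts below therefore have no background of like loci and cannot be set against the shares of protein-coding genes. The knockdown list marked 2 of the 53 (3.77%) by the 1 kb rule, and the control list 0. The 2 were PSMC1P7 (4.25-fold on 18 fragments) and PSMD10P2 (4.14-fold on 19 fragments), both on chromosome 3 and more than 1 kb from any protein-coding gene. PSMD10P2 was thus marked while its parent gene PSMD10 was not. Reads from a copy and its parent can be hard to place, and their part in these values was not tested. Of the 8 noncoding genes, PSMG3-AS1 was marked in both lists, by the same strongest regions as its neighbour PSMG3 (6.24-fold and 6.20-fold), and the other 7 were marked in neither list.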
